A study of Mus musculus with 6 samples.

Results

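The hypoxia-inducible factor (HIF) genes were followed in MC3T3-E1, a mouse pre-osteoblast line from newborn calvaria that forms bone-like matrix when induced. The 10 members were taken by gene name, with no cut on their values but with earlier results of these data known. They are the factor subunits Hif1a, Epas1 and Arnt, the prolyl hydroxylases Egln1, Egln2 and Egln3, and the target genes Car9, Adm, Ndrg1 and Ankrd37. Each was read by 1 probe set that the platform annotation assigns to that gene alone, so 10 of the 19938 genes tested are described here. The differentiated group held 3 arrays of cells induced at confluence for 14 days in DMEM with 0.1 µM dexamethasone, 0.2 mM ascorbic acid-2-phosphate, 10 mM β-glycerophosphate and 1 mM sodium pyruvate. The undifferentiated group held 3 arrays of uninduced cells kept in an α-MEM that contains no ascorbic acid. Both groups had 10% serum, are labelled as C57BL/6 cells and gave total RNA with an average integrity number of 9.9. Medium, confluence, time and induction compounds therefore change together, the labels give no oxygen tension for either group, and all arrays come from 1 cell line. Replicates are called independent without saying what separated them, so p-values measure the spread between these samples.

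HIF is a pair of proteins, an α subunit that oxygen controls and the partner ARNT that is always present. In oxygenated cells the EGLN enzymes hydroxylate prolines of the α subunit, using oxygen, iron, 2-oxoglutarate and ascorbate, and the von Hippel-Lindau ubiquitin ligase then marks it for breakdown. When oxygen falls the α subunit builds up, pairs with ARNT and binds hypoxia response elements near genes of glucose use, vessel growth and pH control. In bone, HIF in osteoblasts is known for coupling blood vessel growth to bone formation. Because this control acts on the protein, mRNA values do not give HIF activity.

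The deposited values are log2 expression from which the median of the 6 arrays was removed in every probe set. A value of 0 is thus the middle of the 6 arrays for that gene. Differences between groups can be read, but whether a gene was expressed at all cannot. Where the groups do not overlap, the centring makes the lowest array of the higher group and the highest array of the lower group equal in size and opposite in sign. In bulk RNA, fewer cells of a type and less RNA per cell cannot be told apart.

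Of the 10 genes, 5 passed an adjusted p under 0.05 in limma, 4 higher and 1 lower in differentiated cells. Over all genes tested 35.5% passed, 16.4% higher and 19.1% lower. The groups did not overlap for 5 of the 10, against 46.2% of all genes, so that count is near the background. The 5 were 4 higher and 1 lower, against 23.2% of all genes higher and 23% lower by the same reading. Only Ndrg1 among the 10 both passed and changed at least 2-fold, which 4.81% of all genes did. The median log2 fold change of the 10 was 0.13, against 0.02 for all genes. Since the 10 were chosen with earlier results of these data known, these figures are a description and not a test.

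Among the 10, Hif1a and Ndrg1 rose most, Adm rose less, and Egln1 fell. Car9 rose least, and its call was lost in 7 of the 15 alternatives tried, whereas the other 4 kept theirs in all 15. The alternatives on the handling of several probe sets could not change the values of these 10 genes, each read by 1 probe set. Ndrg1 held rank 661 of the 19938 genes by the size of its change and Hif1a rank 1719.

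**Figure D1:**
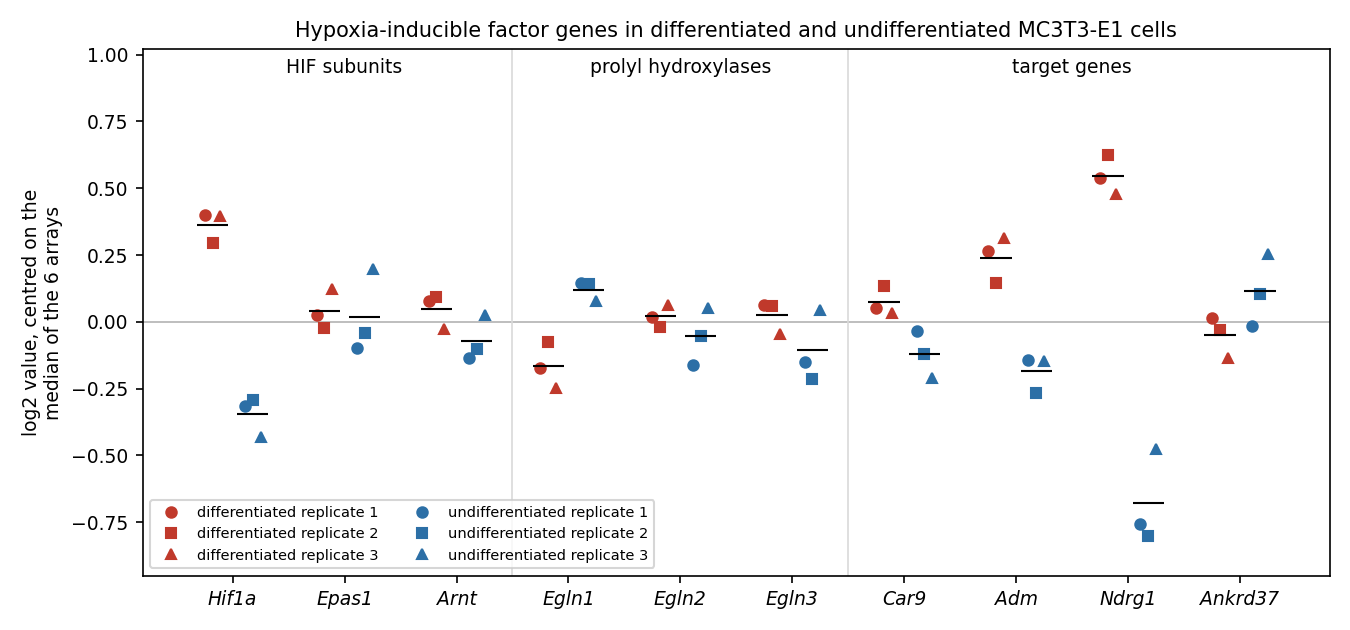
Centred log2 value of each HIF gene (vertical axis) in the 3 differentiated arrays (red, left) and the 3 undifferentiated arrays (blue, right), with the replicate number as the symbol and the group mean as a bar. The groups stand apart for Hif1a, Egln1, Car9, Adm and Ndrg1, and overlap for the other 5 genes.

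Among the subunits, Hif1a, which encodes the α subunit HIF-1α, was higher in differentiated cells. Its centred log2 values (probe set 10396421) were 0.40, 0.29 and 0.39 in the differentiated arrays and -0.31, -0.29 and -0.43 in the undifferentiated arrays. Every differentiated array lay above every undifferentiated one, with a gap of 0.59 between the groups that exceeds the range within either, 0.105 in differentiated and 0.137 in undifferentiated arrays. The log2 fold change was 0.71 ± 0.06 (SE, 3 arrays per group, adjusted p = 2.07e-05), or 1.63-fold with a 95% interval of 1.48 to 1.80. Leaving out any 1 array gave 0.67 to 0.74. The RefSeq bases before the Hif1a start (GRCm38.p6, chr12:73907617-73907866, plus strand) are shown because this was the 1 gene of the 3 subunit genes that changed. Capitals in this and the following promoters mark the core of the hypoxia response element, ACGTG or GCGTG on either strand, which reads CACGT or CACGC when it lies on the other strand. In Hif1a the first capital run reads as ACGTG on both strands, since those matches overlap.
Hif1a: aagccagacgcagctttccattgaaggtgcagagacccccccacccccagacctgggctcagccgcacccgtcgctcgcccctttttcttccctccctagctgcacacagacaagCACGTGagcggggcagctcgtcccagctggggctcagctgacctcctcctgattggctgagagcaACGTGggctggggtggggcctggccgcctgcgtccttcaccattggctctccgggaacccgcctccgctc

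Epas1, the gene of the other main α subunit, HIF-2α, had values (probe set 10447317) of 0.02, -0.02 and 0.12 in the differentiated arrays and -0.10, -0.04 and 0.20 in the undifferentiated arrays. The groups overlapped fully, with undifferentiated replicate 3 the highest of the 6 arrays. Its log2 fold change was 0.02 ± 0.08 (adjusted p = 0.884), with a 95% interval of -0.17 to 0.21, which holds changes of up to 1.16-fold upward and 1.12-fold downward. The sign turned to negative after quantile scaling (-0.000483) and without undifferentiated replicate 1 (-0.04), undifferentiated replicate 2 (-0.01) or differentiated replicate 3 (-0.02).

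Arnt, whose product is the constant partner of both α subunits, had values (probe set 10494238) of 0.08, 0.09 and -0.03 in differentiated and -0.14, -0.10 and 0.03 in undifferentiated arrays. Replicate 3 of each group crossed into the other group's range. The log2 fold change was 0.12 ± 0.06 (adjusted p = 0.201), with a 95% interval of -0.03 to 0.26. Whether Hif1a changed more than Epas1 or Arnt was not tested as a difference between genes, although the interval of Hif1a lies above those of both.

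Of the hydroxylases, Egln1 changed and did so downward. Egln1 encodes PHD2, the enzyme that does most of the hydroxylation of HIF-α in oxygenated cells. Its values (probe set 10582712) were -0.17, -0.08 and -0.25 in differentiated arrays and 0.14, 0.14 and 0.08 in undifferentiated arrays. All differentiated arrays lay below all undifferentiated ones, by a gap of 0.15 that is no larger than the 0.172 range of the differentiated arrays. The log2 fold change was -0.29 ± 0.06 (adjusted p = 0.00507), a level 1.22-fold lower with a 95% interval of 1.11 to 1.34. The fall stayed past the threshold without any 1 array, at -0.33 to -0.25. The bases before the Egln1 start (GRCm38.p6, chr8:124949255-124949504, minus strand) are given because Egln1 is itself known as a HIF target, and 2 capital runs mark core matches.
Egln1: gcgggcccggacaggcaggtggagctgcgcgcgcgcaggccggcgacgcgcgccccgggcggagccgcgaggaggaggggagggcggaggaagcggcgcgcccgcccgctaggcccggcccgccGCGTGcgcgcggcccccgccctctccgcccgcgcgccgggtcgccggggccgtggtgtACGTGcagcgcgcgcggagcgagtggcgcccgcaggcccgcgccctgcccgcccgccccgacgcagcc

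Egln2, the gene of PHD1, had values (probe set 10561170) of 0.02, -0.02 and 0.06 in differentiated arrays and -0.16, -0.05 and 0.05 in undifferentiated arrays. Its groups overlapped, and its log2 fold change of 0.08 ± 0.07 did not pass (adjusted p = 0.444, 95% interval -0.07 to 0.22). With 1 array left out Egln2 ran from 0.02 without undifferentiated replicate 1 to 0.13 without undifferentiated replicate 3. Egln3, the gene of PHD3, the EGLN known for the strongest induction by hypoxia, had values (probe set 10400304) of 0.06, 0.06 and -0.04 in differentiated arrays and -0.15, -0.21 and 0.04 in undifferentiated arrays. Undifferentiated replicate 3 lay above differentiated replicate 3, and the other arrays were separated by group. The log2 fold change of Egln3 was 0.13 ± 0.08 (adjusted p = 0.220, 95% interval -0.04 to 0.31), and without undifferentiated replicate 3 it was 0.21 (adjusted p = 0.0325).

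Undifferentiated replicate 3 was the highest of its group for 6 of the 10 genes (Epas1, Arnt, Egln2, Egln3, Ndrg1 and Ankrd37) and the lowest for 3 (Hif1a, Egln1 and Car9). Over all genes it was the highest for 38.1% and the lowest for 33.2%. Its deviations from the group mean had an SD of 0.0947 over all genes, where the other 5 arrays had 0.0745 to 0.0867. Without it Epas1 stood at 0.11, Arnt at 0.17, Egln2 at 0.13 and Ankrd37 at -0.09, none past the threshold.

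**Figure D2:**
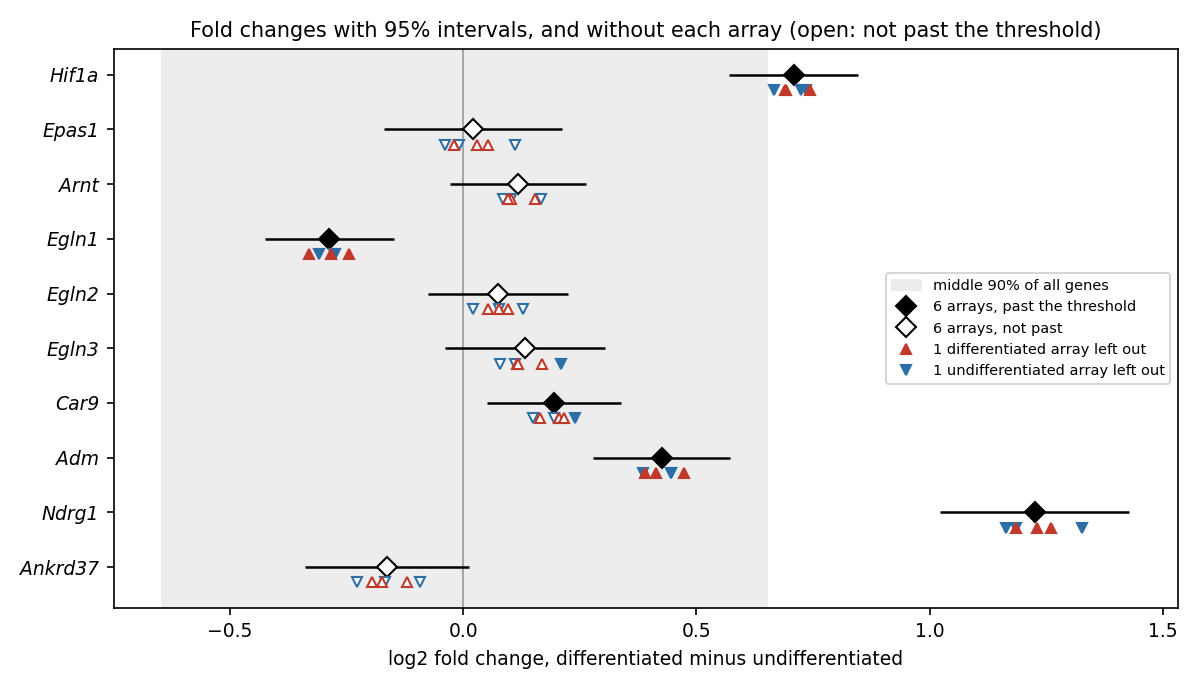
Log2 fold change (horizontal axis, differentiated minus undifferentiated) of each HIF gene with its 95% interval from 6 arrays (diamonds), and without each array in turn (red triangles for a left-out differentiated array, blue for an undifferentiated one), where filled symbols passed an adjusted p of 0.05. Hif1a and Ndrg1 lie beyond the grey band that holds the middle 90% of all genes (-0.65 to 0.65), and most values of Car9 with 1 array left out are open.

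The targets did not move as one. Ndrg1, a cytoplasmic protein gene induced by hypoxia, differentiation and other stresses, was 2.34-fold higher in differentiated cells. Its values (probe set 10429140) were 0.54, 0.62 and 0.48 in differentiated arrays and -0.76, -0.80 and -0.48 in undifferentiated arrays. The groups were separated by 0.95, and the undifferentiated spread came from replicate 3, which lay above the other undifferentiated arrays. The log2 fold change was 1.23 ± 0.09 (adjusted p = 7.25e-06), a fold of 2.03 to 2.69 by the 95% interval, and leaving out any 1 array gave 1.16 to 1.33.

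Adm encodes adrenomedullin, a secreted peptide that widens vessels and also acts on osteoblasts. Its values (probe set 10556297) were 0.26, 0.14 and 0.31 in differentiated arrays and -0.14, -0.26 and -0.15 in undifferentiated arrays. The groups did not overlap, with a gap of 0.29. Adm was 1.34-fold higher (log2 fold change 0.43 ± 0.06, adjusted p = 7.62e-04), with a 95% interval of 1.21 to 1.49-fold. The Adm promoter (GRCm38.p6, chr7:110627407-110627656, plus strand) is shown as that of a target that rose, and holds 2 matches to GCGTG, both on the other strand.
Adm: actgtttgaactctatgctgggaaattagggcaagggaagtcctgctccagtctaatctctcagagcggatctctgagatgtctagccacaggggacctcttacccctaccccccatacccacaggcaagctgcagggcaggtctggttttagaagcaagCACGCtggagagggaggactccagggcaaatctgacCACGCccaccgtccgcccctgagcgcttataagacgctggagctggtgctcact

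Car9 encodes the membrane carbonic anhydrase IX, an enzyme of extracellular pH control and one of the genes most closely tied to HIF-1α. Its values (probe set 10504337) were 0.05, 0.14 and 0.03 in differentiated arrays and -0.03, -0.12 and -0.21 in undifferentiated arrays. The groups were separated by 0.07, less than the range within either group. The log2 fold change was 0.19 ± 0.06, a level 1.14-fold higher (95% interval 1.04 to 1.26) with adjusted p = 0.0398. The call was lost without any 1 array other than undifferentiated replicate 1 (0.15 to 0.22, adjusted p = 0.0656 to 0.125). It was also lost after quantile scaling (0.21, adjusted p = 0.0511) and after cyclic loess (0.16, adjusted p = 0.121). Both scalings were run on the centred values, which lack the expression levels that such scaling works on. The Car9 promoter (GRCm38.p6, chr4:43506776-43507025, plus strand) is shown for its single match, which begins 18 bases before the start.
Car9: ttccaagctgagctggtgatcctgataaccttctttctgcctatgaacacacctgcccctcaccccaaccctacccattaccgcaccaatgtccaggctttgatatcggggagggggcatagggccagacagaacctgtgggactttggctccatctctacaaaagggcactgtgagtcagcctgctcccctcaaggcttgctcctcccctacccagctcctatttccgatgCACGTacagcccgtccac

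Ankrd37, a small ankyrin-repeat protein gene known as a HIF-1α target, did not pass. Its values (probe set 10578515) were 0.02, -0.03 and -0.13 in differentiated arrays and -0.02, 0.10 and 0.25 in undifferentiated arrays. The groups overlapped through differentiated replicate 1 and undifferentiated replicate 1, and the log2 fold change of -0.16 ± 0.08 had adjusted p = 0.144 (95% interval -0.34 to 0.01). With 1 array left out it ran from -0.23 without undifferentiated replicate 1 (adjusted p = 0.0538) to -0.09 without undifferentiated replicate 3. Its promoter (GRCm38.p6, chr8:45999851-46000100, minus strand) is shown beside those of Adm and Car9 because it holds more capital runs, 3, than either, the nearest beginning 6 bases before the start.
Ankrd37: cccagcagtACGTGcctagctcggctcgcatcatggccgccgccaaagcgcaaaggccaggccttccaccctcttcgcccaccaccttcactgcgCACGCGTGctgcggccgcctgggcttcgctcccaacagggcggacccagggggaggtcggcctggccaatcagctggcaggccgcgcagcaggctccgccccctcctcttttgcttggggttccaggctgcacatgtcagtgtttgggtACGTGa

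RefSeq windows were matched by symbol for 8 of the 10 genes, and each of the 8 held at least 1 core match in the 250 bases before a start, in any of its windows. The same held for 41.5% of all 27025 genes that have a window. Of the 32851 promoter windows in the table, 38.6% held at least 1 match, 13.5% at least 2 and 4.7% at least 3. The share depends on base composition. It was 63.8% in windows of at least 60% G and C and 28.8% in the others, and the printed promoters held 56.4% to 86.0%. Epas1 and Ndrg1 had no window, so their promoters were not searched. Among the 8 genes searched, those that changed and those that did not both held matches. The number ran from 1 in Car9, Arnt and Egln3 to 4 in 1 of the windows of Egln2.

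**Figure D3:**
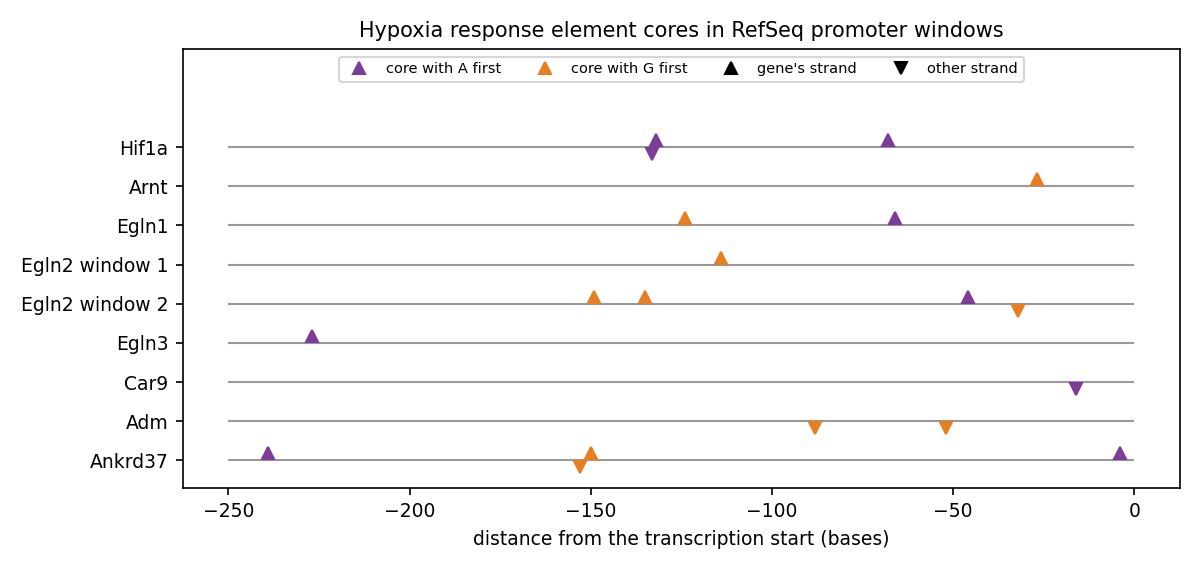
Positions of the core matches of the hypoxia response element (horizontal axis, bases from the transcription start) in RefSeq promoter windows of 8 HIF genes, with the core that starts with A in purple, the core that starts with G in orange, and the symbol pointing up for the gene's own strand. Ankrd37, which did not pass, holds 3 matched stretches and Car9, which did, holds 1.

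By the root mean square difference over the 6 arrays, the named genes with values closest to Ndrg1 were Abtb2 (0.0462), the lysosomal calcium channel gene Mcoln1 (0.0543) and Fam43a (0.0584). Their log2 fold changes were 1.22 ± 0.10, 1.24 ± 0.08 and 1.17 ± 0.09. Such closeness over 2 groups of arrays describes these values only.

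The wider pathway was read from 3 lists of HIF regulators and targets without the 10 above. Across their 83 distinct genes 21 rose, 30 fell and 32 did not pass, with a median log2 fold change of -0.01. The share called was 61.4%, against 35.5% of all genes. Since the lists were chosen with earlier results of these data known, that share is a description and not a test. With the relatives of Car9 and Ndrg1 and the adrenomedullin system added, 28 of 109 rose, 34 fell and 47 did not pass (56.9% called). Without undifferentiated replicate 1, 23 of the 109 rose and 32 fell. Among 17 measured partners and regulators of HIF, 3 rose, 7 fell and 7 did not pass, with a median of -0.14. Cul2, the scaffold of the von Hippel-Lindau ubiquitin ligase, fell in differentiated cells (log2 fold change -0.66 ± 0.08, adjusted p = 2.58e-04). Its values were -0.38, -0.21 and -0.35 in differentiated and 0.30, 0.51 and 0.21 in undifferentiated arrays, without overlap. The adaptor subunits of the same ligase fell too, Elob by 0.41 and Eloc by 0.42 on the log2 scale, whereas Vhl itself had -0.12 ± 0.07 and did not pass (adjusted p = 0.253). The ring subunit Rbx1 had -0.01 ± 0.06 (adjusted p = 0.877), with 0.04 and -0.07 from its probe sets.

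Hsp90aa1, a chaperone that stabilises HIF-α, was lower in differentiated cells (-0.57 ± 0.07, adjusted p = 2.21e-04), as was each of its 3 probe sets (-0.61 to -0.55). Sart1, whose human product is known to promote breakdown of HIF-1α, fell by 0.45 (SE 0.06). Os9, an endoplasmic reticulum lectin whose human product also binds HIF-1α and the hydroxylases, was the largest rise of the list (0.76 ± 0.06, adjusted p = 1.58e-05). The other rises were Hif3a, a further α subunit (0.42 ± 0.09), and the ubiquitin ligase Siah2 (0.24 ± 0.07), which targets EGLN proteins and lost its call without any 1 array other than undifferentiated replicate 3 and differentiated replicate 3. Hif1an, the asparaginyl hydroxylase that blocks the transactivation of HIF-α, fell by 0.22 (SE 0.07, adjusted p = 0.0333). That call was lost after cyclic loess and without any 1 array other than undifferentiated replicate 3 and differentiated replicate 2. Cited2 was the remaining fall of the list, by 0.43 (SE 0.09, adjusted p = 0.00366).

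Target genes of glucose use were mostly lower. Of 21 measured, 4 rose, 12 fell and 5 did not pass, with a median log2 fold change of -0.22. Over all genes tested 16.4% rose and 19.1% fell. As for the lists together, these counts are a description and not a test. Gapdh, Eno1 and Gpi1 of the list were not among the genes tested. The falls were led by Pfkl, the liver phosphofructokinase (-0.71 ± 0.09, adjusted p = 2.69e-04), and Pdk1, a kinase that keeps pyruvate out of mitochondria (-0.68 ± 0.11, adjusted p = 0.00148). Pdk1 had -0.50, -0.14 and -0.58 in differentiated arrays and 0.38, 0.14 and 0.29 in undifferentiated arrays. Replicate 2 lay nearest to 0 in both groups, and the centring sets those values equal in size. The glycolytic enzymes Pgk1 (-0.67 ± 0.08) and Ldha (-0.52 ± 0.06) fell as well. Both have processed copies in the genome whose transcripts a probe set could read.

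The rises in that list were Eno2, the neuronal enolase (1.76 ± 0.11, adjusted p = 3.68e-06), the hexokinases Hk2 (1.46 ± 0.05, adjusted p = 9.20e-08) and Hk1 (0.33 ± 0.05), and the glucose transporter Slc2a1 (0.23 ± 0.06). Hk2 stood at 0.73, 0.70 and 0.73 in differentiated and -0.74, -0.70 and -0.78 in undifferentiated arrays. The probe sets of Hk1 disagreed. In a limma fit of single probe sets 1 passed (0.58, adjusted p = 4.44e-05) and the other did not (0.08, adjusted p = 0.373).

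**Figure D4:**
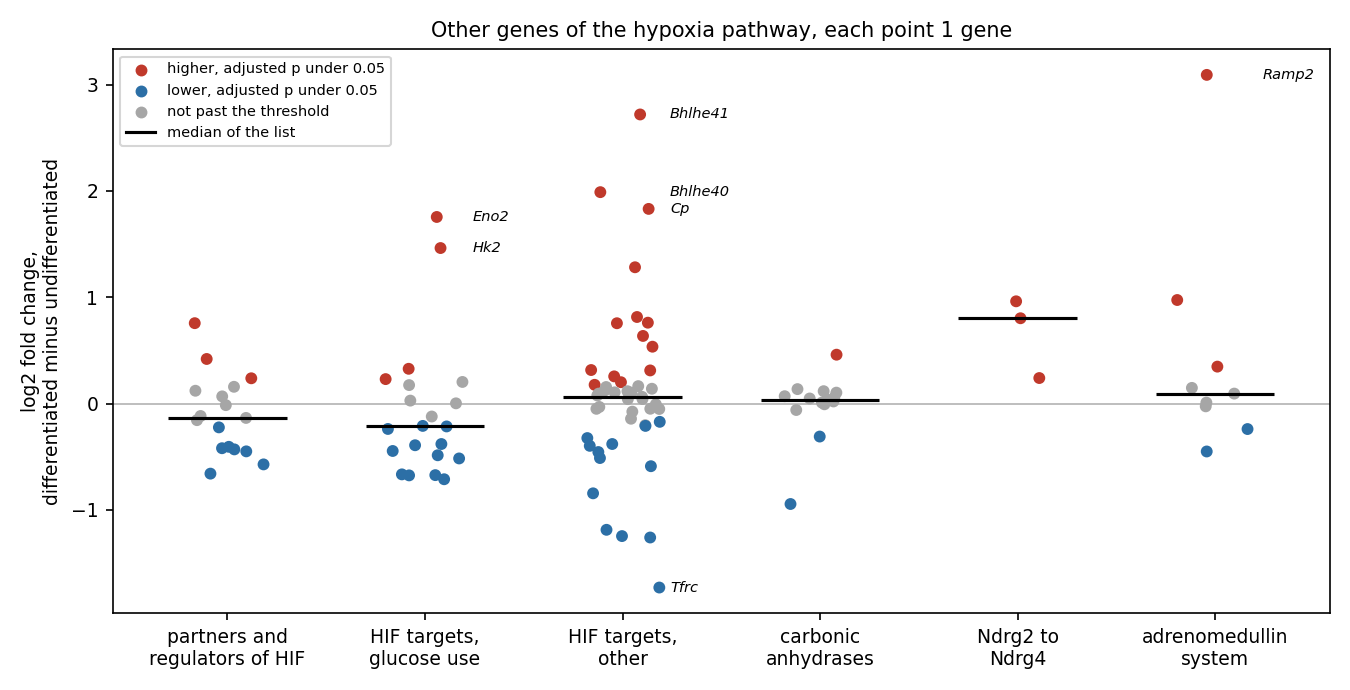
Log2 fold change (vertical axis, differentiated minus undifferentiated) of each measured gene in 6 lists related to the HIF genes, coloured by its call, with a bar for the median of each list. Glucose-use targets lie mostly below 0, with Eno2 and Hk2 far above, and the other targets spread to both sides, from Bhlhe41 at 2.72 to Tfrc at -1.73. Pfkfb3 and Pfkfb4 are drawn in both target lists.

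The list of other HIF targets held 47 measured genes, of which 2, Pfkfb3 and Pfkfb4, also stand in the glucose-use list and fell. Of the 45 others, 14 rose, 11 fell and 20 did not pass, with a median of 0.08. In the full list of 47, 14 rose and 13 fell, against 11 and 13 without undifferentiated replicate 1. The transcriptional repressors Bhlhe41 (2.72 ± 0.06, adjusted p = 8.54e-09) and Bhlhe40 (1.99 ± 0.07, adjusted p = 1.08e-07) and the plasma ferroxidase ceruloplasmin, Cp (1.83 ± 0.09), led the rises. Vegfa, the main vessel growth factor, was 1.55-fold higher (0.64 ± 0.07, adjusted p = 8.94e-05), with 0.33, 0.27 and 0.24 in differentiated and -0.35, -0.24 and -0.47 in undifferentiated arrays. The transferrin receptor Tfrc led the falls (-1.73 ± 0.09, adjusted p = 7.09e-07), followed by the vasoconstrictor endothelin Edn1 (-1.26 ± 0.10), the lipoprotein receptor Vldlr (-1.25 ± 0.07) and the oxidase of protein folding Ero1a (-1.19 ± 0.09). The collagen-modifying hydroxylases of the list went different ways. The prolyl hydroxylases P4ha2 and P4ha1 fell by 0.84 (SE 0.06) and 0.51 (SE 0.08). The lysyl hydroxylase Plod1 rose (0.18 ± 0.06, adjusted p = 0.0481), a call lost without any 1 array other than differentiated replicate 2, and Plod2 had 0.09 ± 0.06 (adjusted p = 0.297).

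Relatives and receptors of the targets were read in the same way. All 3 measured relatives of Ndrg1 rose, Ndrg3 by 0.96 ± 0.06, Ndrg2 by 0.80 ± 0.15 and Ndrg4 by 0.24 ± 0.07. Differentiated replicate 2 of Ndrg2, at 0.17, lay far below the 0.81 and 0.76 of the other differentiated arrays, and the Ndrg4 call (adjusted p = 0.0254) was lost without undifferentiated replicate 1 or 2 or differentiated replicate 2 or 3. Of 15 carbonic anhydrases besides Car9, 12 did not pass. The mitochondrial Car5b rose (0.46 ± 0.05), and the cytosolic Car13 (-0.94 ± 0.07) and the secreted Car6 (-0.31 ± 0.06) fell. Car12, the other hypoxia-induced membrane form, had -0.01 ± 0.08 (adjusted p = 0.965).

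Adrenomedullin acts through the receptor CALCRL joined to the accessory protein RAMP2 or RAMP3. Ramp2 was 8.52-fold higher in differentiated cells (3.09 ± 0.14, adjusted p = 4.61e-07), with 1.40, 1.43 and 1.33 in differentiated and -2.002, -1.77 and -1.33 in undifferentiated arrays. Ramp3 was 1.37-fold lower (-0.45 ± 0.09, adjusted p = 0.00328), with -0.11, -0.34 and -0.13 in differentiated and 0.27, 0.11 and 0.39 in undifferentiated arrays. Neither gene's groups overlapped. Calcrl had -0.03 ± 0.06 (adjusted p = 0.801), and whether it was expressed cannot be read from centred values.

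Pam, the enzyme that amidates adrenomedullin and other peptides, was 1.96-fold higher (0.97 ± 0.06), and Ramp1, which with CALCRL forms the receptor of calcitonin gene-related peptide, 1.27-fold higher (0.35 ± 0.08). Of 9 measured genes of the list 3 rose, 2 fell and 4 did not pass. The second fall was Calcb, a calcitonin gene-related peptide gene (-0.24 ± 0.07, adjusted p = 0.0301), whose call was lost after cyclic loess and without any 1 array other than undifferentiated replicate 1.

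Other changes accompanied these. Of 7 measured osteoblast genes, 4 rose, among them Dmp1 (3.44 ± 0.20), Ibsp (3.12 ± 0.09) and Omd (2.27 ± 0.08), and Sp7 and Col1a1 fell by 0.40 each, Sp7 losing its call after cyclic loess. All 7 measured genes of dividing cells fell, led by Cenpe, Mki67 and Plk1 (-2.95 to -2.90), with list means of -1.11 to -1.02 in differentiated and 0.963 to 1.18 in undifferentiated arrays. All 8 glucocorticoid response genes rose, led by Errfi1 (3.29 ± 0.06), Fkbp5 (2.93 ± 0.09) and Sgk1 (2.90 ± 0.11), with list means of 1.16 to 1.25 in differentiated and -1.24 to -1.10 in undifferentiated arrays. Of 6 macrophage genes Cd68 (0.44) and Cd14 (0.42) rose, of 6 adipocyte genes Fabp4 (0.46), and of 6 endothelial genes Vwf (0.23), whose call was lost after cyclic loess and without any 1 array other than undifferentiated replicate 3. The defining markers Ptprc, Adgre1, Adipoq, Plin1, Cdh5 and Pecam1 did not pass, except that Pecam1 (0.15 ± 0.06) passed as higher without undifferentiated replicate 3, and centring hides whether any of them was at 0. The part of these changes in the values of the HIF genes was not tested.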

How the data were processed

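RNA from 3 differentiated and 3 undifferentiated samples was labelled with biotin and hybridised to 1-colour Affymetrix Mouse Gene ST arrays. The deposited values are log2 expression that the authors made with RMA of an unstated version (per the submitters' processing notes). Each probe set's 6 values have 0 as their median (tolerance 1e-06), a centring that no source used here describes. No level, detection call or depth can be had, and precision is limited by the 6 arrays. Higher was taken as more RNA.

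Of 28856 probe sets, 21789 name 1 gene, 1621 several and 5446 none. Those naming 1 gene were used, with symbols updated by gene ID (21698 matched) through a RefSeq table of GRCm38.p6, and averaged per gene. Differentiated minus undifferentiated was fitted over 19938 genes with limma 3.58.1 (R 4.3.3; lmFit, eBayes, two-sided, Benjamini-Hochberg over all genes, threshold 0.05), and errors are moderated standard errors. The fit was tested on simulated data. Promoters were searched with Python 3.11.15; proteins were not used here.

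The members and lists were chosen with earlier results of these data known. Genes named beside the members are up to 4 per pathway list and up to 3 per marker list, those with the largest called changes, and the 3 genes nearest to a member changed at least 2-fold. Elob, Eloc, Vhl, Hif3a, Siah2, Hif1an, Cited2, Pgk1, Ldha, Hk1, Slc2a1, Vegfa, Edn1, Vldlr, Ero1a, P4ha1, P4ha2, Plod1, Plod2, Rbx1, Pfkfb3, Pfkfb4, Car12, Calcrl, Calcb, Sp7, Col1a1 and the markers that did not pass were named after their values were seen. List genes outside the table of tested genes were not analysed here. Alternatives were a replicate block, quantile, median and cyclic loess scaling, other handling of several probe sets, array weights, robust eBayes and each array left out. The scalings were run on the centred values and so could not follow expression level.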

Additional observations from a re-analysis of the deposited data

How the results depend on the processing

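Under 15 alternatives Hif1a, Ndrg1, Adm and Egln1 kept direction and call. Those on the handling of several probe sets could not move the values of the 10 genes, as each has 1 probe set. Car9 did not pass after quantile scaling (0.21) or cyclic loess (0.16), and stood at 0.15 to 0.24 with each array left out in turn, past the threshold without undifferentiated replicate 1 alone. Egln3 ran from 0.0798 to 0.21 with an array left out and passed without undifferentiated replicate 3 alone. Epas1 changed sign after quantile scaling (-0.000483) and ran from -0.0383 to 0.11 with an array left out. The causes were not tested. Of the list genes named in the report, Siah2, Hif1an, Ndrg4, Calcb, Vwf, Sp7 and Plod1 lost a call under the settings given there. Plod1 also lost its call with the replicate block and among genes with 1 probe set, and Pecam1 gained a call. Some list genes not named in the report lost or gained calls too. The replicate numbers gave no clear sign of pairing, but these values cannot exclude it. Deviations from group means correlated at -0.00133, 0.0692 and 0.162 over all genes for numbers 1 to 3. The 0.162 was the highest between any differentiated and any undifferentiated array, and 3 of 6 arrays correlated best with their own number. With the number as a block (replicate block) 3328 genes rose and 3834 fell, against 3270 and 3800 without it, and no call among the 10 genes changed. Genes with 1 probe set only was an alternative chosen after seeing the data. A dim-gene filter and an intensity trend were planned but not run, since centring removed the levels both would use. Quantile and cyclic loess scaling lacked those levels too. What a call lost under them means for a gene therefore cannot be told.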
